A study of Mus musculus with 59 samples.

Results

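Ribosomal protein genes were examined as a group in a chromatin survey of mouse uterus across age. The group was taken by name: gene symbols beginning with Rpl or Rps and a number, together with Rplp0, Rplp1 and Rplp2, with pseudogene names left out. Where a gene had several peaks of a mark, the peak with the highest mean level was kept. The rule found 67 genes with a peak in either table, 63 of them in both, out of 15809 gene symbols with an H3K4me3 peak and 16767 with an H3K27ac peak. Each mark had 65 of these genes: Rps3 and Rps6kl1 had a row only for H3K4me3, and Rpl4 and Rpl6l only for H3K27ac. No comparison between ages entered the rule.

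The series held 59 samples of C57/B6 mice with the tissue label uterus, and the protocol names pieces of frozen endometrial tissue as the material. H3K4me3 marks promoters and H3K27ac marks promoters and enhancers in use. Both were measured in the same 27 animals by native chromatin immunoprecipitation and sequencing from few nuclei. The young group held 7 animals of 9 to 11 weeks, aged1 held 4 animals of 28 to 36 weeks, aged2 held 6 animals of 42 to 48 weeks and aged3 held 10 animals of 54 to 65 weeks. No treatment or genetic change is named for any group, and 5 input samples were not used here. The samples of a group came from separately numbered mice.

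The ribosome is built from a large and a small subunit, each a set of proteins on a ribosomal RNA scaffold, and nearly every cell makes these proteins in quantity. Their genes are spread over the genome and have short promoters with little use of a TATA box. The transcripts of most of them begin with a C and a run of pyrimidines, the 5′ terminal oligopyrimidine tract through which the growth-control kinase mTOR sets their translation. The genes are usually treated as housekeeping genes, and their promoters carry both marks in active tissue.

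Of the 80 ribosomal protein genes of the standard set of both subunits, 59 had at least 1 start in the RefSeq promoter table (GRCm38.p6), with 69 starts in all. 68 of these 69 starts (98.6%) lay inside an H3K4me3 peak, against 48.4% of all 32851 listed starts. The 300 bases from 250 before a start to 50 after it had a median GC content of 58.33%, between the 52.67% of all starts and the 61.33% of the 15906 starts in H3K4me3 peaks. A C followed by at least 4 further C or T stood exactly at 15 of the 69 ribosomal protein starts (21.7%), against 2.51% of all starts and 2.53% of starts in H3K4me3 peaks. The letters CCGGAAG, the core that ETS factors bind, were on either strand within the 300 bases of 36.2% of ribosomal protein starts, 8.86% of all starts and 15.9% of starts in H3K4me3 peaks. CTCGCGAG, the core of a palindrome known from housekeeping promoters, was in 11.6%, 0.919% and 1.8% in the same order. AAGATGGC, the core of the YY1 motif, was in 11.6%, 2.75% and 3.78%. CTCTTT, which can overlap the pyrimidine run, was in 50.7%, 23% and 19%. GGGCGG, the core of the Sp1 motif, was in 60.9% of ribosomal protein starts and 63.7% of starts in H3K4me3 peaks, and TATAAA in 8.7% and 6.55%. Of the other motifs searched, CTTTCC was in 47.8% of ribosomal protein starts and 26.3% of starts in H3K4me3 peaks, the E-box CACGTG in 11.6% and 9.8%, and CCAAT, the CCAAT box, in 30.4% and 36.5%. These shares describe letters in a window, with both strands searched, and show no binding.

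The stretches below run from 70 bases before the RefSeq start through the first 15 transcribed bases (GRCm38.p6, 5′ to 3′ on the gene's strand). They are given for members whose level differed with age, for members at the extremes of level, and for members with a pyrimidine run at the listed start. The Rpl12 start shown lies outside the Rpl12 peaks that differed, in a peak named for Lrsam1 that did not pass the test. Capitals mark the first 6 motifs spelled out above, on either strand, and the pyrimidines at the start.
Rps16, chr7:28350619-28350703, + strand: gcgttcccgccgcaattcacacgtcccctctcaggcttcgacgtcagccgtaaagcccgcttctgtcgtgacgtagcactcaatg
Rpl36al, chr12:69184053-69184137, - strand: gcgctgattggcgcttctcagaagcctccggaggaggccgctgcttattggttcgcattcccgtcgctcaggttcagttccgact
Rpl39, chrX:37085208-37085292, - strand: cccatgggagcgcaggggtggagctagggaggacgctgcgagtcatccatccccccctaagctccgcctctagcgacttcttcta
Rpl12, chr2:32961642-32961726, + strand: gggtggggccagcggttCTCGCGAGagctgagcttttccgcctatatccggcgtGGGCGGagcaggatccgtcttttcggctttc
Rplp0, chr5:115559397-115559481, + strand: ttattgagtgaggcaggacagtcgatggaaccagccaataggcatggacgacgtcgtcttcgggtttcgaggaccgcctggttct
Rps3a1, chr3:86142654-86142738, - strand: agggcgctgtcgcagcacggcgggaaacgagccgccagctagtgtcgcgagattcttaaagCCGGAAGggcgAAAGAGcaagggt
Rpl24, chr16:55966205-55966289, + strand: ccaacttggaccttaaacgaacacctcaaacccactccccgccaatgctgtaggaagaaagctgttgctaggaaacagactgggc
Rps6, chr4:86857353-86857437, - strand: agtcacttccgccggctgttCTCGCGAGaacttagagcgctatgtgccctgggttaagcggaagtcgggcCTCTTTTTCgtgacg
Rpl15, chr14:18270972-18271056, - strand: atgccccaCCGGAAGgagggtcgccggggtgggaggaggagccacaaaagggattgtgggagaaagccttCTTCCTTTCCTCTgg
Rplp2, chr7:141447581-141447665, + strand: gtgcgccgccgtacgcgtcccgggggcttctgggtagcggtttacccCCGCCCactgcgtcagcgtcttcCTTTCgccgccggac
Rps6, Rpl15 and Rplp2 carry the pyrimidine run at the listed start. Rps16, Rpl36al, Rpl39, Rplp0 and Rpl24 hold none of these 6 motifs in this stretch. No listed start was found for Rpl7 and Rpl29.

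The files named each peak for a gene, and that name did not always mean the gene's own start. For H3K4me3, 61 of 65 member peaks covered the RefSeq start or, for the 18 genes without a listed start, the end of the gene's RefSeq extent on its start side. For H3K27ac this held for 57 of 65, with 19 genes placed by their extents. The rows of Rpl12 and Rpl3l lay more than 1 kb from every listed start in both marks, as did that of Rpl4 for H3K27ac. Rpl36 and Rpl6l have no listed start. Their peaks lay more than 1 kb from the extent's end, which may not be the start in use. The Rpl3l peak held the start of Msrb1 and the Rpl4 peak that of Snapc5. Conversely, 16 of the 80 genes had their start in an H3K4me3 peak named for another gene, among them Rpl7a in the Med22 peak and Rps25 in the Trappc4 peak. A second set of rows took the peak over each gene's listed start, whatever its name, or the peak with the gene's name where no start is listed. It held 78 peaks in each mark, with none for Rpl23a. One member is no ribosomal protein: Rps6kl1 encodes a protein related to the ribosomal S6 kinases.

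The libraries held 6.835 to 48.29 M reads (M: 1000000) for H3K4me3 and 7.604 to 16.945 M for H3K27ac, as worked back from the values, with 36.3% to 75.8% and 32.3% to 48.7% of reads in peaks. A member peak held a median of 569 reads for H3K4me3 and 175 for H3K27ac, against 120 and 50 over all peaks. Marker genes of other cell types moved with age: of the epithelial genes with a promoter peak, 14 of 16 were higher in aged3 than in young animals for H3K4me3 and 10 of 15 for H3K27ac, and of the stromal genes 13 of 15 and 14 of 15 were lower. The epithelial level (mean log2 RPKM over the list) was 2.41 to 3.07 in young and 2.47 to 4.07 in aged3 libraries for H3K4me3, and the stromal level was 3.10 to 3.62 and 1.72 to 3.62. For H3K27ac the epithelial level was 1.22 to 1.97 and 1.18 to 2.44 and the stromal level 1.71 to 2.36 and 0.63 to 2.34. Of the other lists, smooth muscle genes were lower at 5 of 11 H3K4me3 peaks, leukocyte genes higher at 5 and lower at 1 of 13, and endothelial genes higher at 3 and lower at 2 of 12. For H3K27ac smooth muscle genes were lower at 3 of 8 peaks. Leukocyte genes were higher at 3 of 9, with a median difference of 0.30 over the list, beside -0.18 for H3K4me3. Endothelial genes were higher at 3 and lower at 1 of 10 H3K27ac peaks. By the same test, given below, 26.8% of all H3K4me3 and 25.9% of all H3K27ac promoter peaks differed. Aged3 replicate 10 stood apart from the other aged3 libraries, with the lowest epithelial and the highest stromal level of its group in both marks. In bulk tissue a change in the share of a cell type and a change within cells cannot be told apart.

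The median member peak was stronger and wider than the median promoter peak in both marks. Levels are given as log2 RPKM, reads per kilobase of peak and 1000000 reads, after quantile normalization over the 27 libraries of a mark. The median member level was 4.20 for H3K4me3, at percentile 87.7 of the 25827 peaks tested, against a median of 2.70 over all peaks and 3.68 over promoter peaks with 1 peak per gene. For H3K27ac it was 2.24, at percentile 93.2 of 54354 peaks, against 1.21 and 1.84. The row kept for a gene was its peak of highest mean level, which in part sets a high place among all peaks. Promoter peaks were also the strongest 1 per gene. 52 of 65 members lay above percentile 75 of H3K4me3 peaks and 62 of 65 above percentile 75 of H3K27ac peaks. So did 5404 of 12395 H3K4me3 and 7242 of 11336 H3K27ac promoter peaks. Member peaks had a median width of 2937 and 3065 bases, against 2412 and 2575 over promoter peaks and 1720 and 1843 over all peaks. The Rpl7 peak was the widest of the members in both marks, at 10083 and 10420 bases.

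**Figure D1:**
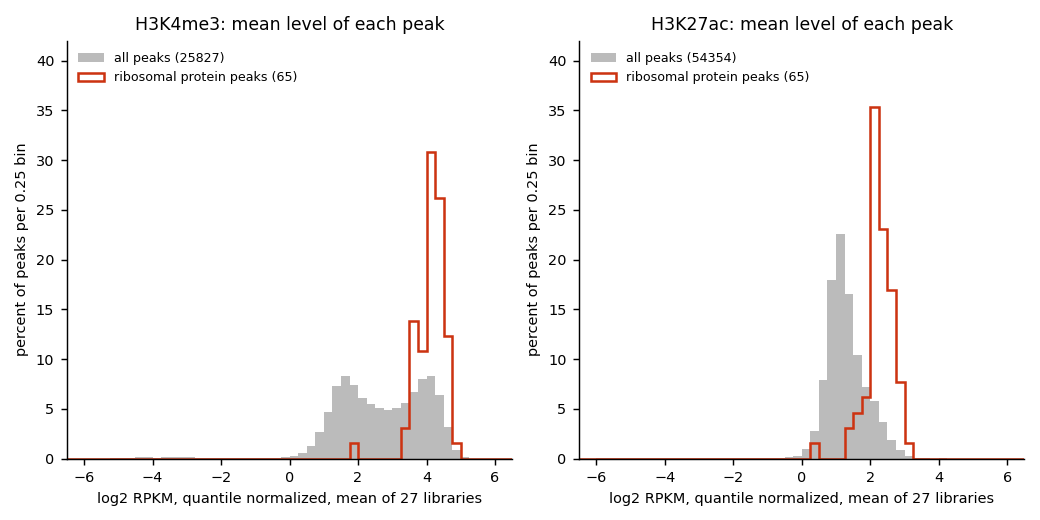
Mean level of each peak over 27 libraries (log2 RPKM, quantile normalized; horizontal axis) against the percent of peaks per bin, for all peaks (grey) and for the 65 ribosomal protein peaks of each mark (red line). The members, each the peak of highest mean level of its gene, sit mostly in the upper part of both distributions, with medians of 4.20 and 2.24.

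The levels of the 2 subunits overlapped. The 32 proteins of the large subunit had a median H3K4me3 level of 4.22, the 25 of the small subunit 4.16 and the 3 of the stalk, the acidic proteins that recruit elongation factors, 4.21. For H3K27ac the medians were 2.36, 2.21 and 2.07 over 33, 24 and 3 genes. The highest H3K4me3 levels were those of Rps27a, which encodes a small-subunit protein fused to ubiquitin (4.82), Rps27l, a p53-responsive paralog of Rps27 (4.73), and Rpl24, a protein of the bridge between the subunits (4.73). For H3K27ac Rps27l (3.24), Rps27a (2.91) and Rpl21 (2.86) led. Rps27l ranked first among the 65 members in 26 of 27 H3K27ac libraries, and Rps27a ranked first in 13 of 27 H3K4me3 libraries and never below 5.

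The low end of the order held several members that are not standard ribosomal proteins. The kinase-like Rps6kl1 had the lowest H3K4me3 level in all 27 libraries (mean 1.88, percentile 31.0). Rpl3l, the paralog of Rpl3 known from heart and skeletal muscle, stood at 3.27 for H3K4me3 and 1.64 for H3K27ac, in a peak that holds the Msrb1 start. Rplp0, which anchors the stalk, was the lowest standard member in both marks, at 3.30 and 1.29. Rpl6l had the lowest H3K27ac level (0.47, percentile 4.48), and Rps3a1, a small-subunit protein, stood at 1.35. Among the other paralogs, Rpl7l1, which acts in nucleolar ribosome assembly, was at 4.46 and 2.63, and Rpl36al, a paralog of X-linked Rpl36a, at 4.26 and 2.16.

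Across the 63 genes with a row for both marks, the 2 levels rose together (Spearman 0.735, Pearson 0.763), as a description across genes, which share libraries and peak widths and are not independent replicates. The order of members was also much alike between libraries: the Spearman correlation of a library's member levels with the mean of the other 26 was 0.856 to 0.981 for H3K4me3 and 0.803 to 0.932 for H3K27ac, again across genes. The 4 X-linked members, Rpl10, Rps4x, Rpl36a and Rpl39, had a median H3K4me3 level of 3.61 against 4.20 for the 56 autosomal standard members. X-linked and autosomal promoter peaks of all genes had medians of 3.07 and 3.71. For H3K27ac the X-linked members had a median of 1.98 and the autosomal ones 2.29, beside 1.60 and 1.85 over all promoter peaks. Rpl10 was the X-linked member with the highest H3K27ac level, at 2.36.

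**Figure D2:**
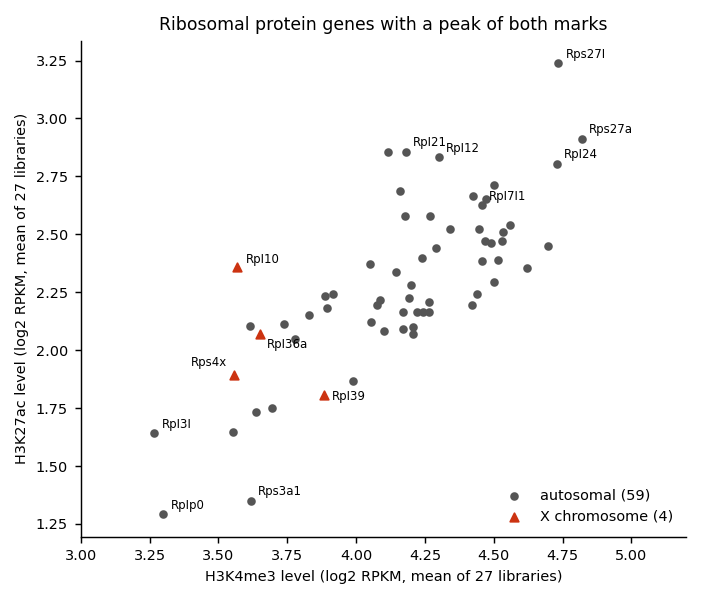
H3K4me3 level (horizontal axis) against H3K27ac level (vertical axis), both as log2 RPKM averaged over 27 libraries, for the 63 genes with a peak of each mark. X-linked genes are red triangles at the lower left of the cloud except Rpl10 at 2.36, Rps27l lies highest at 3.24 and Rplp0 lowest at 1.29 for H3K27ac.

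The comparison of the oldest with the youngest animals asked whether the marks at the member peaks change with age. Few of these peaks did. For H3K4me3, 4 members rose and 1 fell of 65, a share of 7.69%, where 30.7% of all 25827 peaks, 26.8% of promoter peaks and 14.3% of peaks at or above the members' lower quartile of level were called (limma, Benjamini-Hochberg adjusted p under 0.05 over all peaks). For H3K27ac none rose and 2 fell, a share of 3.08%, where 29.3% of all peaks, 25.9% of promoter peaks and 27.6% of peaks at or above the members' lower quartile were called. At an unadjusted p under 0.05 there were 6 and 7 members. Not all member peaks lie at the gene's own start. Of those within 1 kb of it, or of the extent's end, 4 of 62 rose and 0 fell for H3K4me3. For H3K27ac 0 of 60 rose and 1 fell. No member had aged3 libraries wholly above or below the young ones, where 1.27% of H3K4me3 and 0.559% of H3K27ac peaks did. The members were chosen as a set, and no test compared the set with other peaks.

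The size of the differences was small and well bounded. The median difference of the members, aged3 minus young, was 0.07 (log2) for H3K4me3, with 49 of 65 members positive, and -0.06 for H3K27ac, with 46 of 65 negative, beside medians of -0.02 and -0.06 over all peaks. The median absolute difference was 0.07 for H3K4me3, near the 0.08 of peaks at or above the members' lower quartile of level, beside 0.14 over promoter peaks and 0.24 over all peaks. For H3K27ac it was 0.10, beside 0.19, 0.23 and 0.37 in the same order. The 95% interval of the difference lay within 0.5 log2 units of 0 on both sides for 64 of 65 H3K4me3 members and 61 of 65 H3K27ac members, as it did for 42.6% and 19% of all peaks. The exceptions were Rplp0 for H3K4me3, and Rplp0, Rps3a1, Rpl6l and Rpl39 for H3K27ac. The standard deviation within groups was also low, with a median of 0.13 for H3K4me3 members against 0.34 over all peaks and 0.19 over promoter peaks, and 0.18 for H3K27ac members against 0.45 and 0.28. Neither the interval shares nor these standard deviations were compared with peaks of like level. Member peaks held more reads, with medians of 569 and 175 against 120 and 50 over all peaks.

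**Figure D3:**
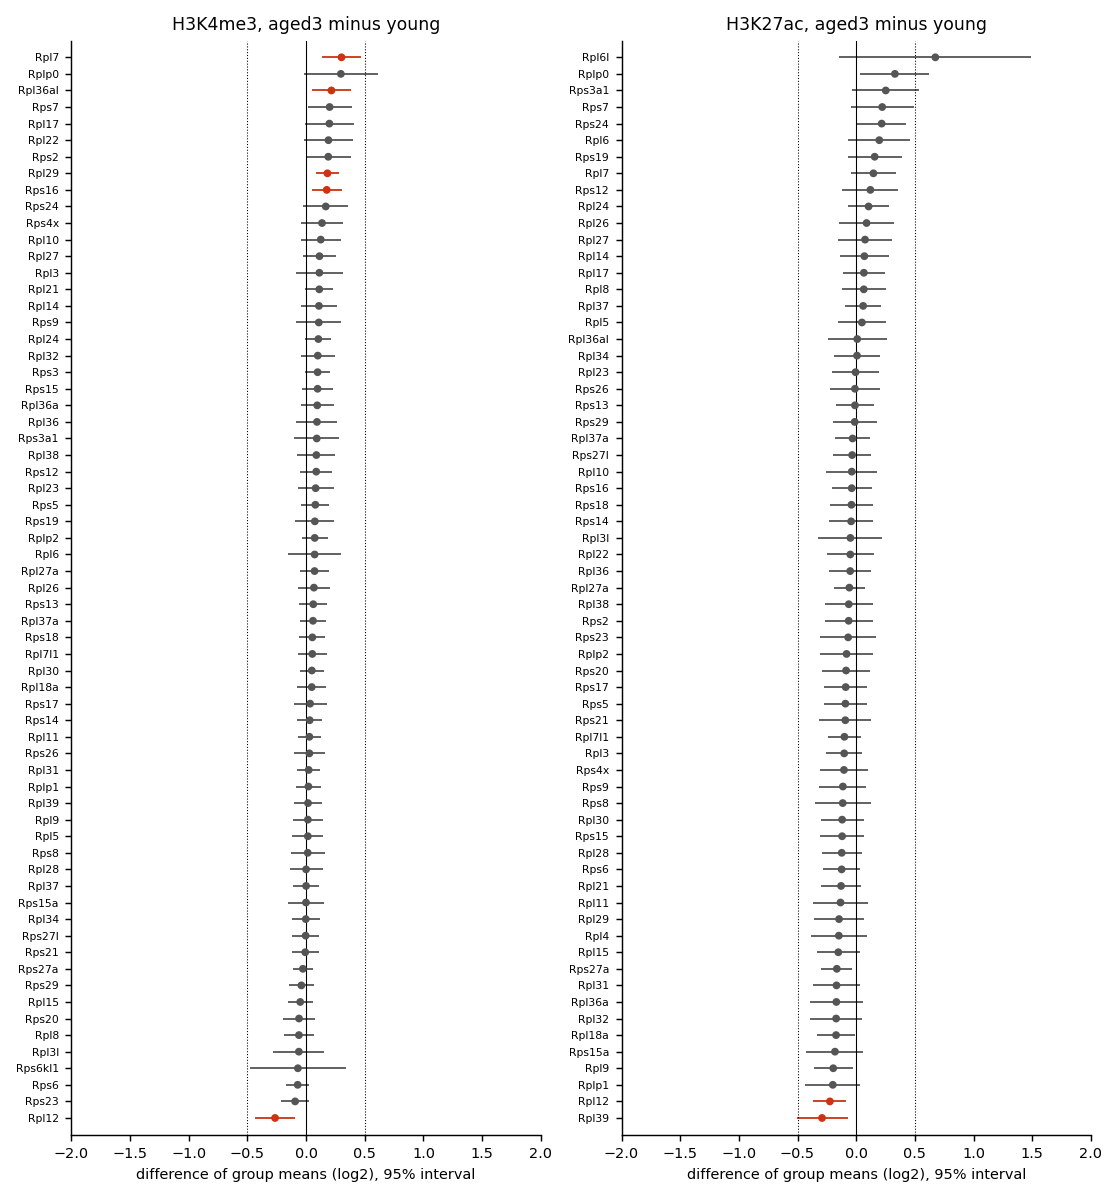
Difference of the aged3 and young group means (log2, horizontal axis) with its 95% interval for every ribosomal protein member, 65 per mark, in order of size; red marks an adjusted p under 0.05 and dotted lines mark 0.5 log2 units. Most intervals cross 0 and stay inside the dotted lines, and 5 H3K4me3 and 2 H3K27ac members are red.

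Of the 4 H3K4me3 peaks that rose, that of Rpl7 had the largest difference in the limma fit, though not by limma voom. Rpl7 is an RNA-binding protein of the large subunit, and its peak spans chr1:16101149-16111231. It stood at 3.82, 3.90 and 4.07 (lowest, median, highest) in the 7 young libraries and at 3.82, 4.23 and 4.49 in the 10 aged3 libraries. The 4 aged1 libraries stood at 4.07, 3.77, 4.00 and 3.96, and the 6 aged2 libraries at 3.84, 4.02 and 4.20. 7 of the 10 aged3 libraries were above every young library and 1, replicate 10, was below the young median. The difference was 0.30 ± 0.08 (SE; adjusted p = 0.00704, limma). It was -0.04 (adjusted p = 0.831) with the epithelial minus stromal level as a covariate. By limma voom on the reads recovered from the values it was 0.13 (adjusted p = 0.0617), below the threshold and the smallest of the 4, where Rps16 differed by 0.19, Rpl29 by 0.16 and Rpl36al by 0.16.

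Rpl29, another large-subunit protein (chr9:106428679-106431271), had the smallest standard error of the 4. Its H3K4me3 level was 4.24, 4.35 and 4.51 in young and 4.41, 4.55 and 4.67 in aged3 libraries. Aged1 libraries stood at 4.59, 4.46, 4.36 and 4.50 and aged2 libraries at 4.35, 4.48 and 4.64. All 10 aged3 libraries were above the young mean of 4.36, and 6 were above every young library. The difference was 0.18 ± 0.05 (SE; adjusted p = 0.0074, limma), and 0.12 (adjusted p = 0.5) with the epithelial minus stromal covariate.

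Rps16 encodes a small-subunit protein that reaches towards the decoding centre, and its peak lies at chr7:28349751-28352168 over the start shown above. Young libraries stood at 3.82, 3.99 and 4.03 and aged3 libraries at 3.90, 4.16 and 4.29. Aged1 libraries stood at 4.00, 3.95, 4.08 and 4.06 and aged2 libraries at 3.87, 4.07 and 4.28. 8 of the 10 aged3 libraries were above every young library, and replicates 4 and 10 were not. The difference was 0.18 ± 0.06 (SE; adjusted p = 0.0323, limma). The call was lost, with an adjusted p of 0.057 to 0.0785, without young replicate 3 or 4 or aged3 replicate 6, 8 or 9.

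Rpl36al was the paralog that rose, in a peak (chr12:69182648-69186216) that also holds the start of Mgat2, a Golgi glycosyltransferase gene. Its young libraries stood at 4.04, 4.14 and 4.45 and its aged3 libraries at 3.91, 4.44 and 4.57. Aged1 libraries stood at 4.20, 4.03, 4.31 and 4.24 and aged2 libraries at 4.03, 4.24 and 4.51. 9 of 10 aged3 libraries were above the young mean of 4.16, and replicate 10 was the lowest of all 27. The difference was 0.22 ± 0.08 (SE; adjusted p = 0.0418, limma), near the threshold. 11 of the 17 fits that leave out 1 library of the 2 groups lost the call (young replicates 1 to 5 and aged3 replicates 1, 2 and 6 to 9; adjusted p of 0.0564 to 0.0892). None of these 4 genes passed the test for H3K27ac, where the differences were 0.15 for Rpl7, -0.15 for Rpl29, -0.04 for Rps16 and 0.01 for Rpl36al.

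The row of Rpl12 was lower in aged3 animals for both marks. Rpl12 encodes a protein at the base of the stalk. For H3K4me3 it stood at 4.31, 4.46 and 4.53 in young, 4.36, 4.57, 4.41 and 4.33 in aged1, 3.94, 4.30 and 4.46 in aged2 and 3.88, 4.10 and 4.50 in aged3 libraries, with 6 of 10 aged3 libraries below every young one. The difference was -0.26 ± 0.08 (SE; adjusted p = 0.0187, limma), and 0.05 (adjusted p = 0.871) with the epithelial minus stromal covariate. For H3K27ac it stood at 2.76, 2.93 and 3.01 in young, 3.04, 2.70, 2.99 and 2.84 in aged1, 2.76, 2.94 and 3.13 in aged2 and 2.55, 2.67 and 2.95 in aged3 libraries, with 8 of 10 aged3 libraries below every young one. The difference was -0.22 ± 0.07 (SE; adjusted p = 0.0187, limma). It was -0.19 (adjusted p = 0.589) with the epithelial minus stromal covariate and -0.11 (adjusted p = 0.36) when libraries were centred on their median, neither past the threshold.

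The Rpl12 row was not at the promoter of Rpl12. Its H3K4me3 peak, chr2:32965799-32968075, lay 4087 bases past the start shown above, and its H3K27ac peak 4000 bases past it. The Rpl12 start lay in a peak named for Lrsam1 (chr2:32960614-32964143 for H3K4me3), whose levels were 4.07 and 1.91. That peak differed by 0.11 ± 0.11 (SE; adjusted p = 0.445) for H3K4me3 and by -0.08 ± 0.11 (adjusted p = 0.593) for H3K27ac. The second set of rows took the peaks over listed starts where there is one. In it 5 of 78 peaks rose and none fell for H3K4me3 (6.41%, beside 30.7% of all peaks). For H3K27ac 2 rose and 1 fell (3.85%, beside 29.3% of all peaks). The peaks added by that choice that rose included those over the starts of Rpl4 (named Zwilch; 0.24 ± 0.08, adjusted p = 0.0253) and Rps28 (named Kank3; 0.16 ± 0.06, adjusted p = 0.0423) for H3K4me3, and of Rpl13 (named Galnt2l; 0.28 ± 0.09, adjusted p = 0.0235) for H3K27ac. This choice was made after the data were seen.

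The other H3K27ac peak that fell was that of X-linked Rpl39, a small protein of the ribosomal exit tunnel (chrX:37082710-37086250). Young libraries stood at 1.65, 2.02 and 2.14 and aged3 libraries at 1.34, 1.72 and 1.91. Aged1 libraries stood at 2.18, 1.97, 1.96 and 1.75 and aged2 libraries at 1.64, 1.77 and 1.97. All 10 aged3 libraries were below the young mean of 1.94, and 4 were below every young library. The difference was -0.29 ± 0.11 (SE; adjusted p = 0.0402, limma), and -0.09 (adjusted p = 0.884) with the epithelial minus stromal covariate. Fits that left out young replicate 1, 2, 3 or 7, or aged3 replicate 2 or 6 to 9, did not call it (adjusted p of 0.0506 to 0.0931). For H3K4me3 the Rpl39 difference was 0.02 ± 0.06. The other X-linked members differed by -0.04 (Rpl10), -0.10 (Rps4x) and -0.17 (Rpl36a) for H3K27ac, none past the threshold.

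**Figure D4:**
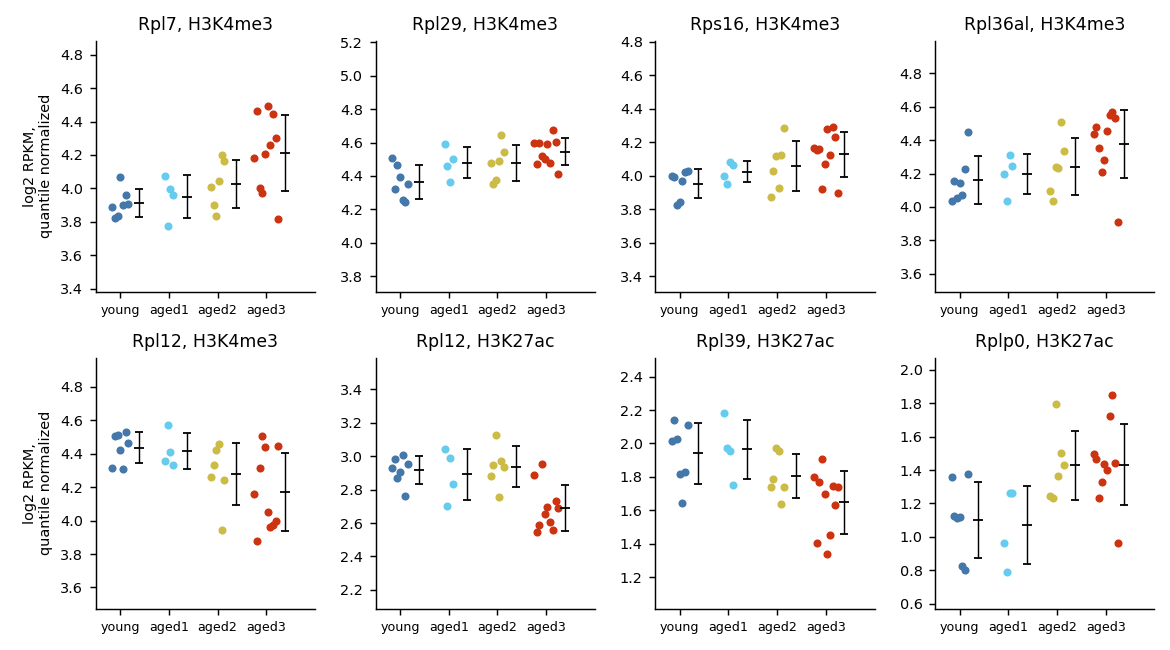
Level of each member that passed the aged3 test, with Rplp0 (H3K27ac) added, in each of 27 libraries (points; log2 RPKM, quantile normalized), by age group, with the group mean and SD in black; every panel spans the same range. Young and aged3 libraries overlap in every panel, for example 3.82 to 4.07 against 3.82 to 4.49 for Rpl7.

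No member passed the test in the earlier age groups. For aged2 minus young, 0 of 65 members were called in either mark, with 0.217% of H3K4me3 and 0.011% of H3K27ac peaks called, and 2 and 3 members had an unadjusted p under 0.05. For aged1 minus young, 0 members were called, with 0.00387% and 0.0% of peaks called, and 0 members had an unadjusted p under 0.05 in either mark. None of the 16 other fits of H3K4me3 and 15 of H3K27ac, limma voom among them, called a member in these comparisons. Few peaks of any kind were called there, so the members' 0 does not set them apart.

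Fitted as a line over weeks of age, 4 H3K4me3 members rose and 1 fell (7.69%; 32.5% of all peaks called), the 5 named above. Rpl7 rose by 0.06 ± 0.01 per 10 weeks (SE; adjusted p = 0.0037, limma). For H3K27ac 1 member rose and 3 fell (6.15%; 32.2% of all peaks called). Rplp0 rose by 0.08 ± 0.03 per 10 weeks (adjusted p = 0.0315), from 0.80, 1.12 and 1.38 in young libraries to 0.96, 1.44 and 1.85 in aged3 ones. Its aged3 minus young difference of 0.33 ± 0.14 had an adjusted p of 0.0799. Rpl39, Rpl12 and Rps27a fell, Rps27a by 0.03 ± 0.01 per 10 weeks (adjusted p = 0.0449), from 2.82, 2.93 and 3.12 in young to 2.60, 2.84 and 2.94 in aged3 libraries. The call of Rps27a was lost in 12 of 27 fits that leave out 1 library (young replicates 5 to 7, aged1 replicates 1 to 3 and aged3 replicates 2 and 5 to 9). That of Rplp0 was lost without young replicate 5 or 6 or aged3 replicate 7 or 8, that of Rpl12 without aged3 replicate 2 or 8, that of Rpl39 without young or aged3 replicate 2, and that of Rpl36al for H3K4me3 without aged3 replicate 8.

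The paralogs and the lowest rows otherwise stayed below the threshold. The aged3 minus young difference of Rps27l was -0.00 ± 0.05 (SE) for H3K4me3 and -0.03 ± 0.07 for H3K27ac, that of Rpl7l1 0.05 and -0.10, that of Rpl3l -0.06 and -0.05, and that of Rps6kl1 -0.07 for H3K4me3. Rpl6l had the largest difference of any member, 0.67 ± 0.40 for H3K27ac (adjusted p = 0.192), with aged3 libraries from -0.67 to 2.12. Its interval ran from -0.14 to 1.49, so this row does not bound a change. The weaker peaks of member genes numbered 2 for H3K4me3 and 15 for H3K27ac. 1 of them was called, an H3K27ac peak of Rps24 (chr14:24499890-24501588), with a difference of -0.54 ± 0.21 (adjusted p = 0.0478). Over all H3K27ac peaks 29.3% were called.

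The median of the 65 members in a library was also compared between groups, on the normalized scale. For H3K4me3 it was 4.09 to 4.26 in young, 4.12 to 4.24 in aged1, 4.10 to 4.35 in aged2 and 4.12 to 4.35 in aged3 libraries. For H3K27ac it was 2.06 to 2.47, 2.15 to 2.47, 2.31 to 2.44 and 2.12 to 2.32. The ranges of all 4 groups overlapped in both marks. As deposited, the H3K4me3 median ran from 3.48 to 4.54 over the libraries, and 3 H3K4me3 libraries with under 45% of reads in peaks are among them.

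**Figure D5:**
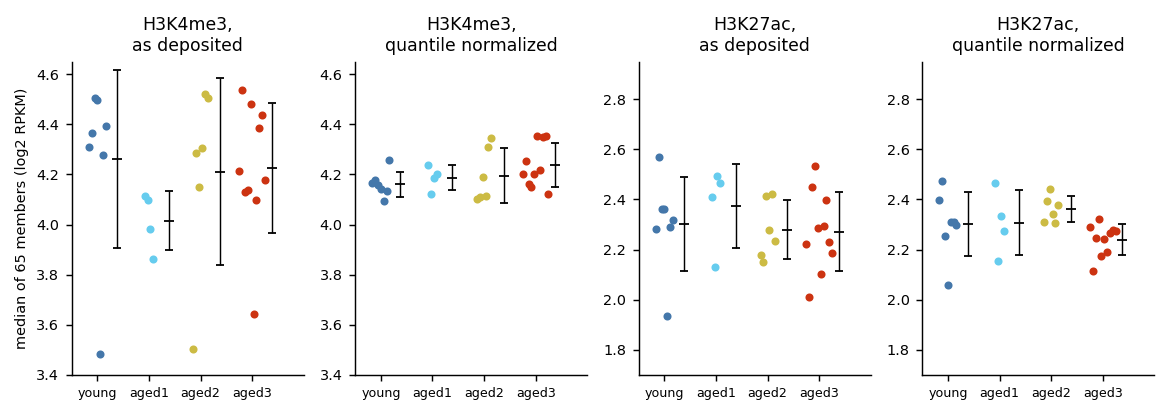
Median log2 RPKM of the 65 members in each library (points) by age group, as deposited and after quantile normalization, with the group mean and SD in black. The deposited H3K4me3 medians spread from 3.48 to 4.54 and the normalized ones from 4.09 to 4.35, with the groups overlapping.

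The rest of the translation machinery was read from lists of promoter peaks, 1 peak per gene. Among ribosomal proteins with other names, Rpsa and Rack1 (a scaffold on the small subunit) had a promoter peak under their own name. Rpsa and Rack1 differed by 0.11 and 0.08 for H3K4me3 and by 0.02 and 0.05 for H3K27ac, below the threshold. The Fau start lay in the Mrpl49 peak, which differed by 0.14 and -0.06.

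Of 18 translation factors, 2 rose and 3 fell for H3K4me3 (27.8%, near the 26.8% of promoter peaks) and none rose and 3 fell for H3K27ac (16.7%, against 25.9%). The initiation factor eIF3 subunits Eif3l (0.22 ± 0.07, adjusted p = 0.0216) and Eif3f (0.22 ± 0.08, adjusted p = 0.0313) rose for H3K4me3. The elongation factor 1 subunit Eef1d (-0.18 ± 0.06, adjusted p = 0.0266) and the histone chaperone Nap1l1, whose transcript has a pyrimidine start (-0.19 ± 0.07, adjusted p = 0.0322), fell. For H3K27ac the translocase Eef2 (-0.34 ± 0.11, adjusted p = 0.0249) and Eef1a1, which brings aminoacyl-tRNA to the ribosome (-0.24 ± 0.08, adjusted p = 0.0257), fell. These calls lie near the threshold, and leaving out 1 library ended them in 2 (Eif3l: young replicates 1 and 2), 7 (Eif3f: young 1, 2 and 5, aged3 6 to 9), 4 (Eef1d: young 2, 3 and 7, aged3 2), 7 (Nap1l1: young 1, 2, 3 and 7, aged3 2, 7 and 8), 3 (Eef2: young 1 and 2, aged3 6) and 4 (Eef1a1: young 2, 3 and 6, aged3 2) of 17 fits.

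Among ribosome assembly genes, 1 of 30 rose and none fell for H3K4me3 (3.33%, against 26.8% of promoter peaks). It was Nop10 of the pseudouridylation particles, by 0.16 ± 0.06 (adjusted p = 0.0471). For H3K27ac none rose and 3 fell (10%, against 25.9% of promoter peaks). Wdr12 (-0.34 ± 0.10, adjusted p = 0.0143) and Ubtf, the RNA polymerase I factor (-0.32 ± 0.11, adjusted p = 0.0265), are named by smallest p. Of 5 host genes of small nucleolar RNAs, none was called for H3K4me3. For H3K27ac 1 fell (20%, against 25.9% of promoter peaks), Snhg12 (-0.37 ± 0.10, adjusted p = 0.0113). Leaving out 1 library ended the call of Nop10 in 11 of 17 fits (young replicates 1 to 4 and 7, aged3 replicates 2 and 6 to 10) and that of Ubtf in 3 (young replicates 2 and 3, aged3 replicate 6).

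Genes that control translation were a further list. Of 20, 1 rose and 1 fell for H3K4me3 (10%, against 26.8% of promoter peaks). For H3K27ac 1 rose and 6 fell (35%, against 25.9%), and no test compared the list with other peaks. Mycn, which encodes the N-Myc transcription factor, rose in both marks, by 0.76 ± 0.18 (adjusted p = 0.00386) from 3.70 ± 0.25 (SD, n = 7) to 4.46 ± 0.52 (SD, n = 10) for H3K4me3 and by 0.83 ± 0.27 (adjusted p = 0.0227) for H3K27ac. With the epithelial minus stromal covariate these values were -0.03 and -0.04, neither past the threshold. The H3K27ac call of Mycn was lost without young replicate 1, 2 or 6. Mxd4, a repressor of the MYC network, fell by 0.26 for H3K4me3 (adjusted p = 0.0392), a call lost in 11 of 17 such fits (young replicates 1 to 4, 6 and 7, aged3 replicates 2 and 6 to 9). Mlst8, a subunit of the mTOR complexes (-0.55 ± 0.12, adjusted p = 0.00302), and Rps6kb2, an S6 kinase (-0.50 ± 0.13, adjusted p = 0.0105), fell for H3K27ac. With the epithelial minus stromal covariate these were -0.19 (adjusted p = 0.692) and -0.27 (adjusted p = 0.685), and with the digit of the library code as a factor -0.36 (adjusted p = 0.0742) and -0.39 (adjusted p = 0.0875). None of the genes named here from the translation factor, assembly, host gene and control lists passed the test with that covariate. With the digit, only Mycn for H3K4me3 did (adjusted p = 0.0431). Centred on the library median, Eef2, Eef1a1, Wdr12, Ubtf and Snhg12 missed the threshold for H3K27ac (adjusted p of 0.0508 to 0.261, limma). So did Eif3f, Eef1d, Nap1l1 and Mxd4 for H3K4me3 (adjusted p of 0.064 to 0.1). Eif3l and Nop10 for H3K4me3, Mlst8 and Rps6kb2 for H3K27ac, and Mycn for both marks still passed it.

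The member calls changed with the terms in the fit and the scaling. Centred on the library median, Rps16 (adjusted p = 0.0785) and Rpl36al (adjusted p = 0.098) for H3K4me3 and Rpl39 (adjusted p = 0.0941) for H3K27ac also missed the threshold, and by limma voom Rpl36al did (adjusted p = 0.108). The calls fell to 0 in both marks with the epithelial minus stromal level as a covariate, where 0.604% of H3K4me3 and 0.081% of H3K27ac peaks were called at all. They also fell to 0 with the digit of the library code as a factor (9.03% and 2.51% of peaks called), a digit whose meaning is not given in the sources used here. With mice numbered under 100 and those over as a factor, 2 H3K4me3 and 0 H3K27ac members were called. 6 of 7 young and 3 of 10 aged3 mice have a number under 100. Without aged3 replicate 10, 8 members rose and 1 fell for H3K4me3 and 1 rose and 3 fell for H3K27ac, with 37.8% and 39.1% of all peaks called.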

How the data were processed

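H3K4me3 and H3K27ac were measured by native ChIP-seq in 27 mice each. Reads were processed with Bowtie2, MACS2 2.2.9.1, DiffBind 3.8.0 and ChIPseeker 1.34.1 on GRCm38, per the submitters' processing notes. How reads that map to several places were treated is not given in the sources used here, and ribosomal protein genes have many near-identical pseudogenes. The authors deposited log2 RPKM per peak and library. Peaks without reads hold a floor of 0.9 reads, so whole reads and library totals could be worked back (100.0% of values whole within 0.05 reads). The 8 chromosome Y peaks of each mark were left out. Values were quantile normalized over 27 libraries and fitted with limma 3.58.1 in R 4.3.3 on 4 group means (trended variance), or on weeks of age. P-values were Benjamini-Hochberg adjusted over all 25827 or 54354 peaks. All 4 groups share 1 estimate of the spread. The fit was tested on simulated data. Promoter peaks are those within 1000 bases of the RefSeq start, the strongest 1 per gene. Named genes are the called members of smallest p (at most 6 per direction), all paralogs and differently named ribosomal proteins, the 3 highest and 3 lowest, the 3 of smallest p per further comparison, and the 2 of smallest p per direction of each pathway list. X-linked members, start peaks and Rps24 were named after their values were seen. Members and lists were chosen with earlier results of these data known. Results for some genes are not reported here.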

Additional observations from a re-analysis of the deposited data

How the results depend on the processing

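The 2 comparisons of the earlier age groups gave 0 called members under every alternative run. The other counts moved. With values as deposited, 0 H3K4me3 and 0 H3K27ac members were called for aged3 minus young, and 0 and 1 over weeks of age. The shares of all peaks called on those values were 22.6% and 34.3%, and 23.5% and 38.1% over weeks. That scaling shifts the median of all H3K4me3 peaks from -0.02 to -0.14 and of the H3K4me3 members from 0.07 to -0.05. Centring on the library median gave 3 members (2 up, 1 down) for H3K4me3 and 2 up for H3K27ac in place of 2 down, with the H3K27ac member median at 0.05, and 6 up for H3K27ac over weeks. Centring called 31.6% and 36.7% of all peaks, and 39.9% for H3K27ac over weeks. With the digit of the library code or the epithelial minus stromal level in the fit, the counts were 0 for aged3 minus young and over weeks in both marks. With a term for mice numbered under or over 100 they were 2 for H3K4me3 and 0 for H3K27ac. Array weights per library gave 22 and 16 members (55.7% and 63.6% of all peaks called), and 10 and 10 over weeks (42.7% and 57.9%). The fit of only the 2 groups gave 1 for H3K27ac (26.4% of all peaks called). Of the alternatives chosen after the data were seen, leaving out the libraries under 45% of reads in peaks gave 3 for H3K4me3 (25.5% of all peaks called). The rows taken by listed start, also chosen then, gave 3 for H3K27ac and 5 over weeks (29.3% and 32.2%). Leaving out 1 library gave 3 to 9 for H3K4me3 and 1 to 5 for H3K27ac, and 4 to 9 and 1 to 6 over weeks. For aged3 minus young the H3K4me3 count was 9 without aged3 replicate 10 and 3 without young replicate 3 or 4 or aged3 replicate 6, 8 or 9. The H3K27ac count was 5 without aged3 replicate 4, 4 without young replicate 4 or aged3 replicate 10, and 1 without young replicate 1, 2 or 7 or aged3 replicate 2, 6, 7, 8 or 9. Over weeks it was 9 for H3K4me3 without aged3 replicate 10, and for H3K27ac 2 without young replicate 5 or 6 or aged3 replicate 7 and 1 without aged3 replicate 2 or 8.

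With the epithelial minus stromal covariate the sign turned for Rpl7 (-0.0436), Rpl36al (-0.0707), Rpl12 (0.0463), Eif3f (-0.0358), Mycn (-0.0263) and Mxd4 (0.0393) for H3K4me3 and for Mycn (-0.0449) for H3K27ac, all below the threshold. The cause of these moves was not tested. Replicate numbers were shared across groups, but the mice differed: 8 of 31 same-numbered pairs for H3K4me3 and 12 of 31 for H3K27ac had a correlation of deviations over 0.1, and 2 and 6 of 24 libraries correlated best with their own number. A replicate block gave 6 members for H3K4me3 and 0 for H3K27ac for aged3 minus young (26.5% and 29.6% of all peaks called). Over weeks it gave 2 for H3K27ac (30.3%). Member differences were less well bounded for H3K27ac than for H3K4me3, with a median standard error of 0.10 against 0.07. Median reads per member peak were 175 against 569, and the median standard deviation within groups was 0.18 against 0.13. The cause of the wider error was not tested.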
